A study of Mus musculus with 6 samples.

Results

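Cells in which transcripts of both Elane and Pf4 were counted were examined in 1 single-cell library, taken 48 h into CAF-1 OFF. A cell was called double-positive when at least 1 UMI of Elane and at least 1 UMI of Pf4 were counted in it, a UMI being the molecular tag that makes each captured transcript count once. Of the 927 cells kept in this library, 416 were double-positive (44.9%, exact binomial 95% interval 41.6 to 48.1), 145 held Elane without Pf4, 119 held Pf4 without Elane, and 247 held neither and served as the double-negative set. The whole series held 5872 kept cells of 7821 barcodes. Because the members were chosen by their Elane and Pf4 UMIs, the values of these genes are a description and support nothing further.

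Elane encodes neutrophil elastase, a serine protease that promyelocytes and their precursors store in azurophil granules. Pf4 encodes platelet factor 4, a chemokine packed into the alpha granules of megakaryocytes and platelets. In normal bone marrow the granulocyte and the megakaryocyte programmes separate before either granule type is filled, so the pair marks programmes that are usually found in different cells. CAF-1 is the chaperone complex that places histones H3 and H4 on newly copied DNA, and Chaf1b encodes its p60 subunit.

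The cells were granulocyte-macrophage progenitors from the bone marrow of C57BI/6 mice carrying a GFP reporter driven by the lysozyme promoter. They were immortalized with HOXA9 fused to an estrogen receptor domain (iGMPs) and grown with estradiol and SCF. In CAF-1 OFF, IPTG switched on a hairpin RNA against Chaf1b in a clonal line while estradiol was kept, with libraries at 0, 48 and 96 h. HOXA9 OFF, with the same time points, was a control-hairpin clone from which estradiol was withdrawn. Each library was a single sort of live cells on droplet 3′ chemistry, each line was 1 clone, and each group had 1 library, so no test between groups was possible. All differences are described by size, and all intervals are 95% and cover counting error only.

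Both genes spanned a wide range among the double-positive cells. Elane had a median of 7 UMIs per cell (range 1 to 67) and Pf4 a median of 3 (range 1 to 24). The members just inside the rule were 27 cells with exactly 1 UMI of each gene, and 271 cells had at least 2 of each. Just outside it, 58 of the 145 Elane-only cells had a single Elane UMI and 61 of the 119 Pf4-only cells a single Pf4 UMI. Some cells held much of one transcript without the other, up to 60 Elane UMIs at 0 Pf4 and up to 17 Pf4 UMIs at 0 Elane.

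Depth differed little between the classes. The median number of UMIs per cell was 6197 in double-positive, 6288 in Elane-only, 6147 in Pf4-only and 5593 in double-negative cells, and the median number of genes was 2089.5 in double-positive against 2000 in double-negative cells. The mitochondrial share had medians of 5.46% and 5.43% in these classes. Detection of both genes did depend on depth among shallow cells. Only 1 of 26 cells under 2000 UMIs was double-positive (3.85%, 0.0973 to 19.6), against 25 of 75 cells from 2000 to 4000 (33.3%), 46.6% from 4000 to 6000, 47.4% from 6000 to 8000 and 48.6% above. A doublet caller (Scrublet) marked 27 of the 416 double-positive cells (6.49%), 4 of 145 Elane-only (2.76%), 5 of 119 Pf4-only (4.20%) and 4 of 247 double-negative cells (1.62%). The part of doublets in the results was not tested beyond leaving the marked cells out. The share of double-positive cells that free RNA would give was not measured.

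**Figure D1:**
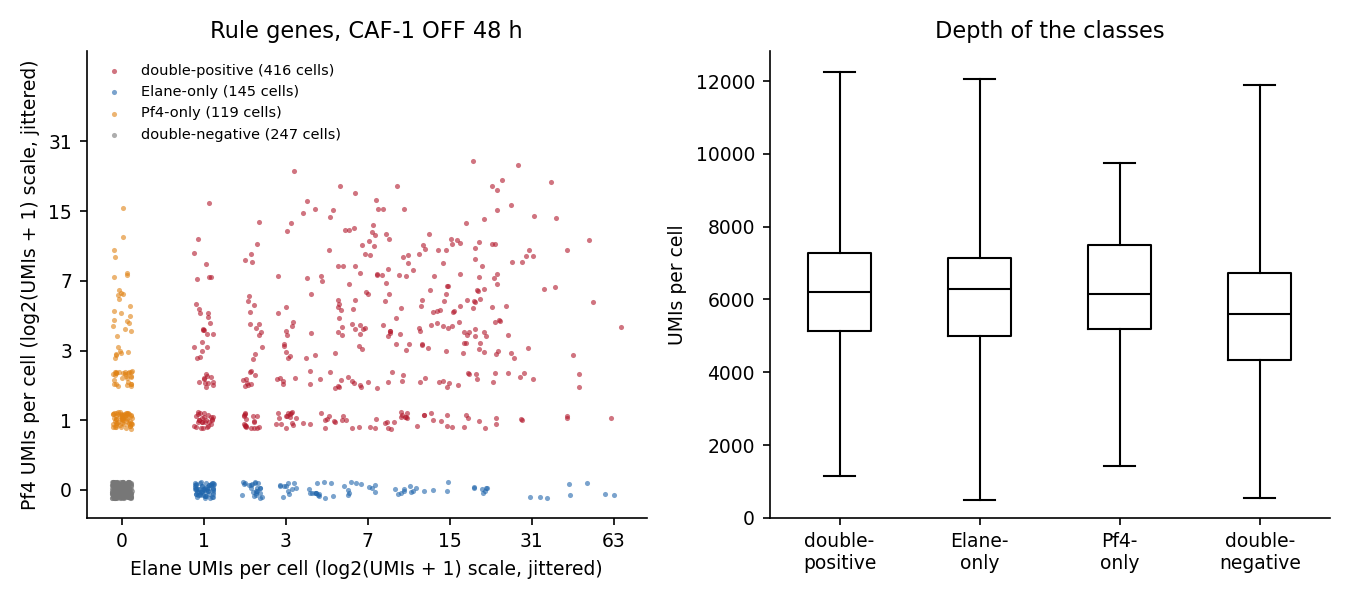
Left, UMIs of Elane (horizontal) and Pf4 (vertical) in each of the 927 cells on log2(UMIs + 1) scales, with points jittered and colored by class. Right, UMIs per cell by class, with boxes for the quartiles, a line for the median and whiskers to the lowest and highest cell. Double-positive cells filled the upper right field, with a median of 6197 UMIs against 5593 in double-negative cells.

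The 250 bases before the annotated start of each gene (RefSeq, GRCm38.p6, both genes on the plus strand) are shown because the 2 genes define the cells. Capitals mark GGAAGT, a core that ETS factors such as PU.1 bind, and GCAAT, a core of C/EBP sites, on either strand (ACTTCC and ATTGC on the minus strand).
Elane, chr10:79886062-79886311: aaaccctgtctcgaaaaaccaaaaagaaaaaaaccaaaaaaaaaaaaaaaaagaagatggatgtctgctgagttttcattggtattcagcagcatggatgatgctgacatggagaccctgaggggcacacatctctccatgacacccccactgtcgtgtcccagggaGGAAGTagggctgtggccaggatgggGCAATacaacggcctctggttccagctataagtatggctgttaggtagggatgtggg
Pf4, chr5:90772185-90772434: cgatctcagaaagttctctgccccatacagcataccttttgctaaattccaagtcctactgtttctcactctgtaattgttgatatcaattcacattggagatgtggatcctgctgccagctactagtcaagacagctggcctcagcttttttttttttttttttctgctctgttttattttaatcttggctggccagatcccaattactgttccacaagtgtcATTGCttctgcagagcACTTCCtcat
In Elane the ETS letters began 83 bases and the C/EBP letters 57 bases before the start, both on the plus strand. In Pf4 both lay on the minus strand, beginning 26 bases before the start for the C/EBP letters and 10 for the ETS letters. The GATA letters AGATAA were in neither window on either strand. Of 27025 promoter windows of this length, 19.99% held the ETS letters, 23.3% the C/EBP letters and 10.3% the GATA letters. These matches are descriptions of letters and not of bound sites.

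The same rule was applied to the other libraries. In CAF-1 OFF, 17 of 647 cells were double-positive at 0 h (2.63%, 1.54 to 4.17) and 758 of 911 at 96 h (83.2%, 80.6 to 85.6), so the 48 h library lay between them. After thinning every cell to 1300 UMIs, which left out shallower cells, the shares were 0.316%, 17.9% and 52.0% at 0, 48 and 96 h. In HOXA9 OFF the rule found 1 of 473 cells at 0 h (0.211%), 6 of 1404 at 48 h (0.427%) and 0 of 1510 at 96 h, where a count of 0 allows a share of up to 0.199% by a floor of 3 counts. Cells of HOXA9 OFF at 96 h were shallower, with a median of 2036 UMIs in double-negative cells. Elane itself was counted in 31.2% of HOXA9 OFF cells at 48 h without Pf4, at a median of 4418 UMIs per cell. Elane summed over all cells stood at 129 CPM (a gene's UMIs scaled to 1000000 UMIs of all genes) at 0 h and 1386 at 96 h of CAF-1 OFF, and Pf4 at 22.3 and 2481.

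How the genes of the rule were spread over cells is given as a description only. At 48 h, Elane was counted in 77.8% of cells with Pf4 and in 37.0% of cells without it. Within bins of similar depth the product of the shares gave 329 double-positive cells, against 416 observed, a ratio of 1.26. The part of doublets and of free RNA in this ratio was not tested. With 1 rate per UMI for all cells, 19.6 cells would lack Elane and 105 would lack Pf4, whereas 366 and 392 did. Among the 413 double-positive cells with at least 2600 UMIs, thinned to that depth, Elane and Pf4 levels had a Spearman rho of 0.203 across cells of 1 library, which in sparse counts is no finding.

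Across the other genes, the double-positive cells held more transcripts of the protease inhibitor and late granulocyte lists, whose summed levels were 17.5 and 14.7 times those of double-negative cells, and fewer of the progenitor list, at 0.676 times. The first list rested mostly on Slpi and the second on Mmp8 and Lcn2. UMIs were summed over the cells of a class, and 2608 genes whose double-positive and double-negative sums averaged 50 CPM or more were compared on log2(CPM + 10). At least 2-fold higher in double-positive cells were 53 genes, 2.03% of those compared, and 26 genes, 0.997%, were at least 2-fold lower. At least 4-fold higher on this scale were 17 genes, and 0 were 4-fold lower. Without the added 10 CPM, the lower gene Rtp4 was 4.12-fold lower, at 25.6 against 105 CPM in double-positive and double-negative cells. The median log2 ratio of all compared genes was -0.068. In 225 pairs of 1 double-positive and 1 double-negative cell matched within 10% of UMIs, with median depths of 5721 and 5730, all 53 and all 26 genes were at least 1.5-fold different in the same direction, and 48 and 19 were at least 2-fold different. Without the cells marked by Scrublet, 60 genes were higher and 31 lower.

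**Figure D2:**
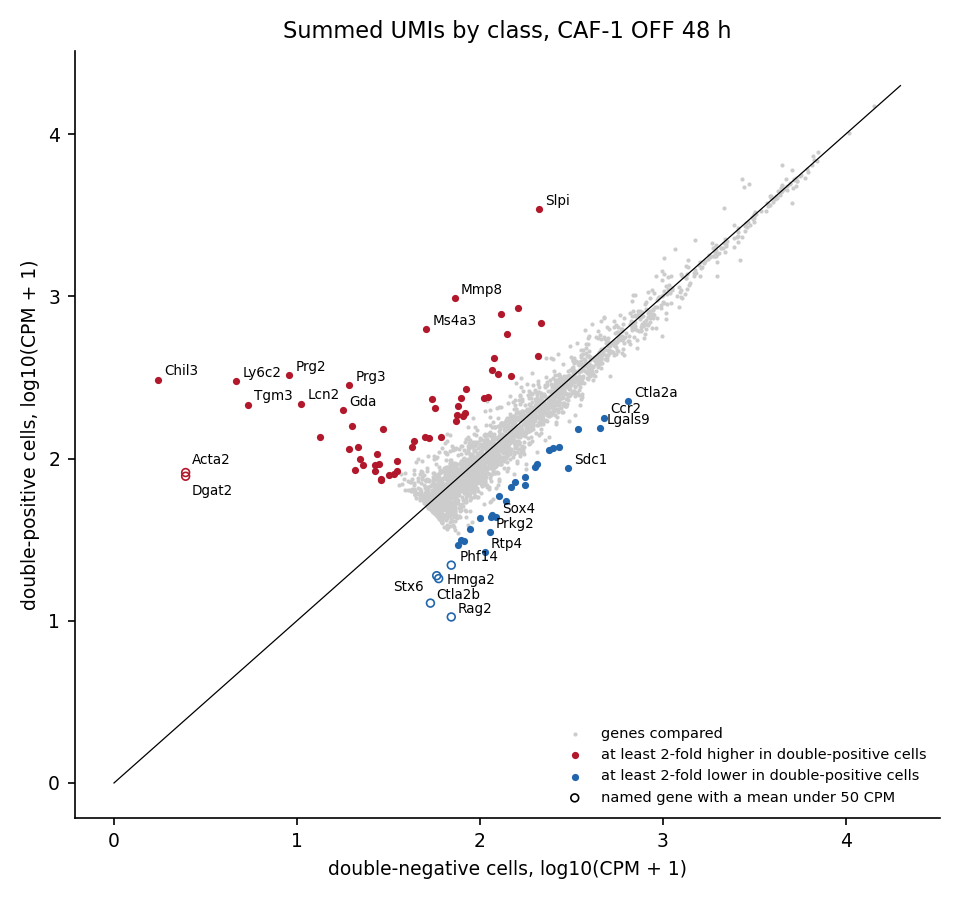
Each point is a gene, with its level in the summed double-negative cells on the horizontal axis and in the summed double-positive cells on the vertical axis, both as log10(CPM + 1). The 53 higher genes (red) reached farther from the line of equal levels than the 26 lower genes (blue), with 17 of the higher genes at least 4-fold higher and 0 of the lower genes 4-fold lower, and open circles are named genes whose mean was under 50 CPM.

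Granulocyte genes were higher in double-positive cells. Of 8 early granulocyte genes, 7 were compared, 2 were at least 2-fold higher and 0 lower, and the list's summed level was 10832 CPM in double-positive against 5929.6 in double-negative cells (ratio 1.83, 1.78 to 1.87). Ms4a3, a membrane protein of committed granulocyte-macrophage progenitors, stood at 628 CPM in double-positive, 305 in Elane-only, 129.7 in Pf4-only and 49.8 in double-negative cells (12.6-fold, 9.90 to 16.3). It was counted in 62.0% of double-positive and 6.99% of double-negative cells at an equal depth of 2600 UMIs. The 0 h library held Ms4a3 at 115 CPM, above the double-negative cells. Cebpe, the C/EBP factor that switches on secondary granule genes, stood at 779 CPM in double-positive, 414 in Elane-only, 374 in Pf4-only and 129.6 in double-negative cells (6.01-fold, 5.15 to 7.05). For both genes the classes were ordered alike, with Elane-only cells next to double-positive cells and double-negative cells lowest.

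Genes of the other primary granule proteins, which like elastase are made at the promyelocyte stage, differed less. Mpo, myeloperoxidase, stood at 2238 CPM in double-positive, 1995 in Elane-only, 1555 in Pf4-only and 1493 in double-negative cells, a log2 ratio of 0.58. Ctsg, cathepsin G, reached 4926 CPM in double-positive and 2963 in double-negative cells (1.66-fold, 1.61 to 1.72), and Prtn3, proteinase 3, 1953 against 1170.4 CPM (1.67-fold, 1.58 to 1.77). Mpo was counted in 99.0% and 97.4% of the cells of these classes at 2600 UMIs. Fcnb, ficolin B, had 154 UMIs in double-positive cells and 1 in double-negative cells.

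Of 13 late granulocyte genes only 2 were high enough to compare, and both were higher. Mmp8, the collagenase of secondary granules, stood at 975 CPM in double-positive, 542 in Elane-only, 178 in Pf4-only and 71.8 in double-negative cells (13.6-fold, 11.1 to 16.8). Lcn2, the siderophore-binding lipocalin of the same granules, stood at 218 CPM in double-positive, 50.6 in Elane-only, 36.5 in Pf4-only and 9.52 in double-negative cells (22.9-fold, 13.3 to 43.2). Other members had few UMIs over all double-positive cells, with 0 of the secondary granule gene Ltf, 1 each of Camp and Ngp, 72 of S100a8 and 6 of S100a9. The list summed to 1237 CPM in double-positive and 84.2 in double-negative cells, against 10698 CPM in the HOXA9 OFF library at 48 h.

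Among 8 protease inhibitor and related genes of the neutrophil lineage, both compared members were higher, and the list ratio was 17.5, 15.6 to 19.8. Slpi, the secretory leukocyte peptidase inhibitor that blocks elastase and cathepsin G, stood at 3475 CPM in double-positive, 1695 in Elane-only, 574 in Pf4-only and 209 in double-negative cells (16.6-fold, 14.8 to 18.8). It was counted in 91.3% of double-positive, 66.9% of Elane-only, 55.2% of Pf4-only and 30.1% of double-negative cells at 2600 UMIs. Tgm3, a transglutaminase, stood at 215 CPM in double-positive, 63.3 in Elane-only, 21.6 in Pf4-only and 4.39 in double-negative cells (48.8-fold, 22.3 to 134). Stfa1, a stefin whose counts are uncertain because near-identical copies can share its reads, had 162 UMIs in double-positive and 2 in double-negative cells.

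The monocyte list did not move as a block. Its 10 genes summed to a ratio of 1.19, 1.10 to 1.29, with a median log2 ratio of 0.34, and of 3 compared members 1 was higher and 1 lower. Ly6c2, part of the Ly6C antigen of monocytes and immature myeloid cells, stood at 300.2 CPM in double-positive, 147 in Elane-only, 35.1 in Pf4-only and 3.66 in double-negative cells (82.0-fold, 34.97 to 253). Its level in the 0 h library was 32.3 CPM, above that of the double-negative cells. Ccr2, the chemokine receptor that guides monocytes out of the marrow, went the other way and stood at 178 CPM in double-positive, 339.5 in Elane-only, 432 in Pf4-only and 475 in double-negative cells (0.375 times, 0.333 to 0.424). The mature monocyte genes Lyz2 and Csf1r had 4 and 8 UMIs in double-positive cells and 0 in double-negative cells.

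Genes of eosinophils, basophils and mast cells were partly higher. Prg2, the major basic protein of eosinophil granules, stood at 325 CPM in double-positive, 28.8 in Elane-only, 841 in Pf4-only and 8.06 in double-negative cells (40.3-fold, 22.4 to 81.0). At 0 h it stood at 141 CPM, so the double-negative cells lay at 0.0572 times the 0 h level (0.0284 to 0.103). The UMIs of Prg2 were held by few cells. It was counted in 43 of 416 double-positive cells, 5 of which held 69.8% of the UMIs (up to 245 in a cell), and 5 Pf4-only cells held 99.7% of the UMIs of that class. Prg3, its homolog, was spread more widely, over 159 double-positive cells, and stood at 284 CPM in double-positive and 18.3 in double-negative cells (15.5-fold, 10.4 to 24.1). The 0 h level of Prg3 was 74.7 CPM, again above the double-negative cells. Epx, eosinophil peroxidase, had 1 UMI in double-positive cells.

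Mcpt8, a basophil protease, stood at 583 CPM in double-positive, 213 in Elane-only, 251 in Pf4-only and 139.9 in double-negative cells (4.17-fold, 3.58 to 4.87), and it was counted in 63.4% and 23.1% of double-positive and double-negative cells at 2600 UMIs. Hdc, another gene of this list, was low but higher in double-positive cells, at 26.0 against 5.86 CPM (4.44-fold, 2.13 to 10.7). Cpa3, the carboxypeptidase of mast cells and basophils, differed less, with 1094 CPM in double-positive, 829.8 in Elane-only, 1368 in Pf4-only and 872 in double-negative cells. Its double-positive to double-negative ratio was 1.26 (1.17 to 1.34), and its level was highest in Pf4-only cells. Cpa3 in double-negative cells was 4.17-fold above the 0 h library (209 CPM). Fcer1g, the shared Fc receptor gamma chain, was lower in double-positive cells at 722 against 1036 CPM (0.697 times, 0.650 to 0.747).

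Apart from Pf4, the megakaryocyte genes were low in every class. The 14 listed genes, which do not include Pf4, summed to 330.4 CPM in double-positive and 157 in double-negative cells (ratio 2.11, 1.81 to 2.46). Of 3 compared genes 1 was at least 2-fold higher, and it made up most of the difference between these sums. This was Thbs1, the platelet granule glycoprotein thrombospondin 1 that myeloid cells also make, at 135 CPM in double-positive, 89.8 in Elane-only, 27.0 in Pf4-only and 12.5 in double-negative cells (10.9-fold, 6.69 to 18.9). It was higher in Elane-only than in Pf4-only cells. Itga2b, the integrin that defines the megakaryocyte lineage, had 51 UMIs in double-positive and 5 in double-negative cells (19.5 against 3.66 CPM; 5.33-fold, 2.14 to 17.1). It was counted in 5.81% of double-positive, 4.41% of Elane-only, 2.59% of Pf4-only and 0.437% of double-negative cells at 2600 UMIs. Gp9, a subunit of the platelet von Willebrand factor receptor, stood at 79.2 CPM in double-positive, 65.6 in Elane-only, 90.5 in Pf4-only and 57.9 in double-negative cells (1.37-fold, 1.05 to 1.80). The other compared gene, Plek, stood at 70.0 against 71.8 CPM in double-positive and double-negative cells (0.975 times, 0.759 to 1.26).

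The summed erythroid list was not higher in double-positive cells, and its members were mixed. Of 3 compared, 0 were 2-fold different on the log2(CPM + 10) scale, and the median log2 ratio of the list was 0.08. Its 15 genes summed to 427 CPM in double-positive, 392 in Elane-only, 550.0 in Pf4-only and 472 in double-negative cells, against 209 at 0 h (double-positive over double-negative 0.904, 0.820 to 0.998). Car2, the carbonic anhydrase of erythroid and other progenitors, stood at 179 CPM in double-positive, 185 in Elane-only, 322 in Pf4-only and 264 in double-negative cells (double-positive over double-negative 0.677 times, 0.589 to 0.779). In double-negative cells Car2 was 2.73-fold above the 0 h library. Hbb-bt, an adult beta globin, had 29 UMIs in double-positive and 42 in double-negative cells (0.360 times, 0.217 to 0.593). Gata2, a factor shared by megakaryocyte, erythroid and mast cell progenitors, stood at 36.3 against 39.6 CPM (0.918 times, 0.651 to 1.31), an interval that includes no difference. Other members were higher, with Blvrb, biliverdin reductase B, at 99.0 against 44.7 CPM (2.22-fold, 1.67 to 2.98) and Gfi1b, a repressor of the erythroid and megakaryocyte lineages, at 27.9 against 14.6 CPM (1.91-fold, 1.15 to 3.30).

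The summed progenitor list was lower in double-positive cells. The 8 listed genes summed to 1231 CPM in double-positive and 1821 in double-negative cells (ratio 0.676, 0.642 to 0.713), with a median log2 ratio of -0.55, and 2 of the 6 compared were at least 2-fold lower, against 0 higher. Flt3, the receptor of lymphoid-primed progenitors, stood at 70.4 CPM in double-positive, 94.4 in Elane-only, 107 in Pf4-only and 155 in double-negative cells (0.455 times, 0.372 to 0.557). Sox4, a factor of early progenitors and leukemic cells, stood at 42.8 CPM in double-positive, 84.0 in Elane-only, 89.2 in Pf4-only and 122 in double-negative cells (0.352 times, 0.275 to 0.450). Cd34, the surface marker of stem and progenitor cells, stood at 642 against 914 CPM in double-positive and double-negative cells (0.702 times, 0.652 to 0.756) and was counted in 79.2% of double-positive and 92.1% of double-negative cells at 2600 UMIs. Erg (1.24-fold, 0.825 to 1.89) and Cd48 (0.851 times, 0.703 to 1.03) had intervals that include no difference. Flt3 in double-negative cells was 1.55 times its 0 h level, an interval from 1.31 to 1.84. The summed list stood at 1.22 times the 0 h library in double-negative cells (1.17 to 1.28) and 0.827 times in double-positive cells (0.793 to 0.863). At 96 h the double-positive to double-negative ratio of the list was 1.09 (0.879 to 1.36).

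The listed lymphoid genes were low and mixed. They summed to a ratio of 1.16, 1.01 to 1.33, and of the 9 genes only Nkg7 was compared, at 179.7 against 113 CPM (1.59-fold, 1.33 to 1.92), while Dntt, the terminal transferase of early lymphoid cells, stood at 22.9 against 48.3 CPM (0.475 times, 0.329 to 0.684). Rag2, a subunit of the V(D)J recombinase, gave the largest log2 ratio among the lower genes named, with 25 UMIs in double-positive and 94 in double-negative cells, or 9.56 CPM in double-positive, 33.4 in Elane-only, 52.7 in Pf4-only and 68.8 in double-negative cells (0.139 times, 0.0856 to 0.218). Its mean was under 50 CPM, so it is outside the count of 26. Sdc1, the syndecan that marks plasma cells, stood at 86.0 CPM in double-positive, 161 in Elane-only, 188 in Pf4-only and 303 in double-negative cells (0.284 times, 0.240 to 0.335). Among the other genes of the 26, named here after their values were seen, Ebf1, a B-lineage transcription factor, stood at 115 CPM in double-positive, 204 in Elane-only, 205 in Pf4-only and 252 in double-negative cells, and Cd72, a B-cell surface receptor, at 28.3 against 75.4 CPM in double-positive and double-negative cells. These single genes do not describe lymphoid genes as a group.

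The remaining lower genes of the naming rule were Rtp4, Ctla2b, Lgals9, Ctla2a, Prkg2, Phf14, Stx6 and Hmga2. Lgals9, the lectin galectin 9, stood at 154 CPM in double-positive, 230.2 in Elane-only, 366 in Pf4-only and 454 in double-negative cells. Ctla2a, an inhibitor of cathepsin-like proteases, stood at 224 CPM in double-positive, 383 in Elane-only, 596 in Pf4-only and 645 in double-negative cells, and its paralog Ctla2b at 11.9 against 52.7 CPM in double-positive and double-negative cells, with reads that near-identical copies can share. Prkg2, a cGMP-dependent kinase, was 34.0 CPM in double-positive and 112 in double-negative cells, against 2.14 at 0 h. In each of these 8 genes the Elane-only and Pf4-only sums lay between those of double-positive and double-negative cells. The genes were named for their large ratio between those outer classes, so this order is partly given by the choice.

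The remaining higher genes of the rule were Chil3, Acta2, Gda and Dgat2. Chil3, a chitinase-like secreted protein of neutrophil precursors and macrophages, had 800 UMIs in 114 double-positive cells and 1 UMI in double-negative cells, a ratio of 418 whose interval ran from 74.7 upward to 16517. Gda, guanine deaminase, stood at 198 CPM in double-positive, 113 in Elane-only, 48.6 in Pf4-only and 16.8 in double-negative cells (11.8-fold, 7.77 to 18.8). Acta2, smooth muscle actin, and Dgat2, an enzyme of triglyceride synthesis, had means under 50 CPM and 2 UMIs each in double-negative cells, against 212 and 201 in double-positive cells. A further 4 of the 53 higher genes were picked after their values were seen and stand for no gene group. Gstm1, a glutathione transferase, stood at 681 CPM in double-positive, 447 in Elane-only, 382 in Pf4-only and 216 in double-negative cells. Gsr, glutathione reductase, stood at 268 against 82.8 CPM, Slc7a11, the cystine importer, at 89.9 against 22.0 CPM, and Idh1, a cytosolic source of NADPH, at 203 against 55.7 CPM in double-positive and double-negative cells.

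Transcripts of the knockdown target were few in every class. Chaf1b had 7 UMIs in double-positive and 5 in double-negative cells, or 2.68 CPM in double-positive, 3.45 in Elane-only, 4.05 in Pf4-only and 3.66 in double-negative cells, against 35.6 CPM at 0 h. The double-positive to double-negative ratio was 0.731 times, 0.200 to 2.92, so a difference was not detectable with so few UMIs. The 15 histone and chaperone genes summed to a ratio of 1.14, 1.12 to 1.16, and 0 of 10 compared were 2-fold different. H3f3b, which encodes the replication-independent histone H3.3, stood at 6451 CPM in double-positive, 6116 in Elane-only, 5451 in Pf4-only and 4505 in double-negative cells and at 1948 in the 0 h library. The double-negative cells thus already held 2.31 times the 0 h level of H3f3b. H1fx, a linker histone, behaved likewise, at 234 against 185 CPM in double-positive and double-negative cells and 40.6 CPM at 0 h. Nasp, a chaperone of H1 and H3, was lower in double-positive cells at 95.2 against 159.7 CPM (0.596 times, 0.495 to 0.719).

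Of 10 lineage transcription factor genes, 6 were compared and 0 were 2-fold different. Spi1, which encodes PU.1, stood at 292 CPM in double-positive, 197 in Elane-only, 188 in Pf4-only and 156 in double-negative cells (1.87-fold, 1.60 to 2.19), and Cebpb at 127 CPM in double-positive, 93.2 in Elane-only, 91.9 in Pf4-only and 65.2 in double-negative cells (1.95-fold, 1.54 to 2.49). Cebpa, the factor that drives the granulocyte-macrophage step, stood at 64.2 against 63.7 CPM (1.01 times, 0.774 to 1.32). Elf1, an ETS factor, was lower at 36.7 against 65.9 CPM (0.557 times, 0.413 to 0.751).

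No compared cell cycle gene was 2-fold different. The 25 S phase genes summed to a ratio of 0.820, 0.793 to 0.848 and the 25 G2/M genes to 1.08, 1.04 to 1.12, which was 1.02 in depth-matched pairs, with 0 genes of either list called. Among S phase genes the replicative helicase subunit Mcm2 stood at 63.9 against 111 CPM (0.574 times, 0.458 to 0.719). Interferon response genes gave 1.40, 1.32 to 1.48, mostly from Ifitm3, a membrane protein that blocks virus entry, at 1434 against 985 CPM in double-positive and double-negative cells. Targets of p53 gave 1.18, 1.05 to 1.32 and stress response genes 0.820, 0.679 to 0.992. Ribosomal protein genes gave 0.995 and mitochondrial genes 1.01. The 8 genes not expressed in blood had 0 UMIs in all 4 classes.

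**Figure D3:**
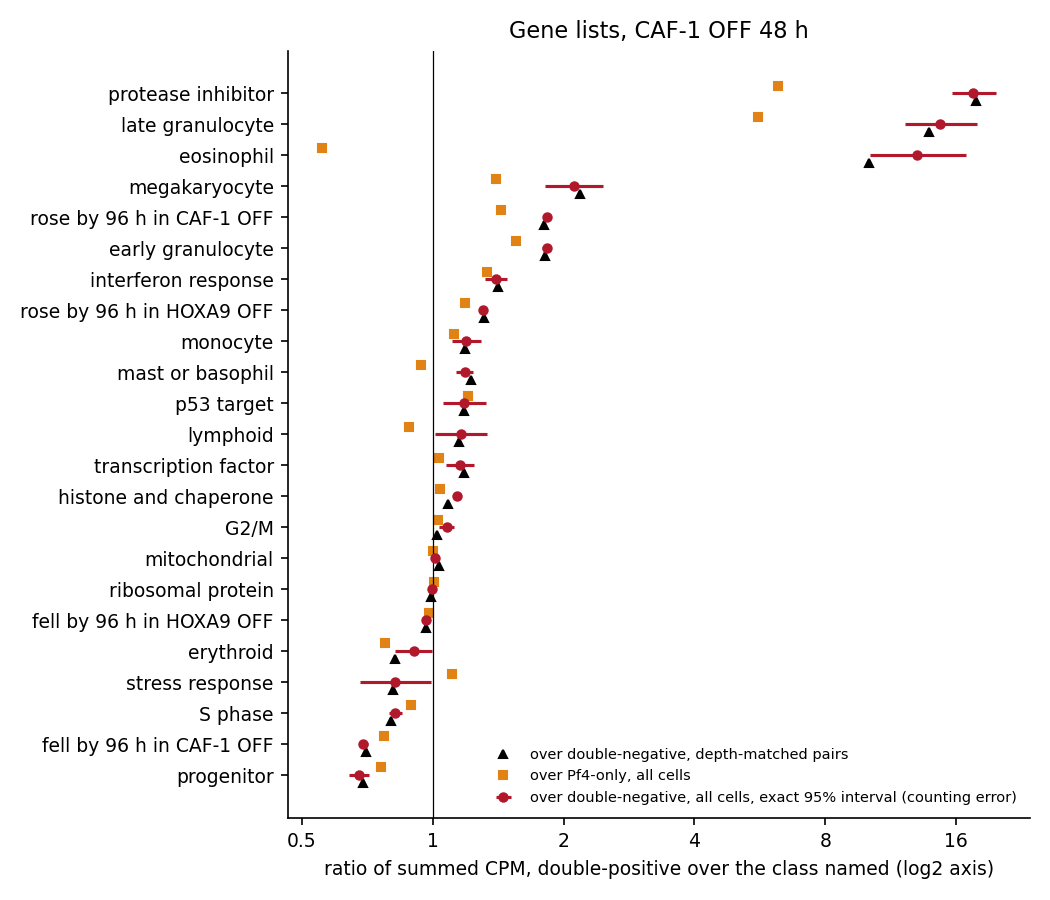
Ratio of the summed CPM of each gene list on a log2 axis, for double-positive over double-negative cells (red, exact 95% interval of counting error), the same in depth-matched pairs (black triangles), and double-positive over Pf4-only cells (orange squares). The protease inhibitor list (17.5) and the late granulocyte list (14.7) lay at the top and the progenitor list (0.676) at the bottom.

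In their median over the called genes, Elane-only and Pf4-only cells lay between the double-positive and double-negative cells. This place is partly given by the choice, since the genes were called by the double-positive to double-negative ratio. Of the 53 genes higher in double-positive cells, 24 were at least 2-fold higher in Elane-only than in double-negative cells, and 14 in Pf4-only cells. Over all 2608 compared genes these counts were 24 and 15. The medians over the 53 were 0.92 and 0.69 on the log2 scale. Set directly against double-positive cells, Elane-only cells differed 2-fold in 11 of 2608 genes, all of which were higher in double-positive cells, and Pf4-only cells in more, 26 of them higher and 11 lower in double-positive cells. The lower granulocyte genes of Pf4-only cells are seen in Slpi, at 574 against 1695 CPM in Elane-only cells, and in Mmp8, at 178 against 542. Car2 and Cpa3 were ordered the other way, at 322 and 1368 CPM in Pf4-only against 185 and 829.8 in Elane-only cells.

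The double-positive cells were also split by the UMIs of the rule genes themselves, which gives a description only. The 271 cells with at least 2 UMIs of each gene (median 6140 UMIs of all genes) were set beside the 145 cells with a single UMI of either (median 6246). The protease inhibitor list summed to 4636 and 2124 CPM, the late granulocyte list to 1515 and 712, and the progenitor list to 1136 and 1411. Chil3 stood at 416 and 98.0 CPM, and Ly6c2 at 399.5 and 113. The erythroid list, at 432 and 417 CPM, and the megakaryocyte list, at 334 and 323, were close to each other.

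Genes of different lineages were counted in the same cells in all 4 classes. At 2600 UMIs, 9 genes of 3 kinds (erythroid Car2, Eng, Gata1, Gata2 and Gfi1b, mast cell or basophil Cpa3 and Mcpt8, eosinophil Prg2 and Prg3), a subset of those lists chosen with earlier results known, were looked for in each of 413 double-positive cells. At least 1 UMI was found of 0 kinds in 5.08% of cells, of 1 kind in 42.1%, of 2 kinds in 41.4% and of all 3 in 11.4%. In 116 Pf4-only cells the shares were 5.17%, 33.6%, 50.9% and 10.3%, in 136 Elane-only cells 13.2%, 39.7%, 41.9% and 5.15%, and in 229 double-negative cells 10.9%, 52.8%, 32.8% and 3.49%. Cells with at least 2 kinds were thus not particular to the double-positive class. Of pairs of genes within double-positive cells, Prg2 and Prg3 lay together in 26 cells, against 8.47 from the product of their shares. Ly6c2 and Ms4a3 lay together in 108 cells, against 83.1, whereas Ly6c2 and Cpa3 did so in 67, against 95.1. Mcpt8 and Cpa3 met in 184 cells, against 186, and Slpi and Car2 in 119, against 118.

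The double-positive cells at 48 h resembled the 96 h library more than the 0 h library. By the same rule, 83.2% of 96 h cells were double-positive and 2.31% double-negative, against 2.63% and 70.8% at 0 h. The order of these distances is thus partly given by the rule. The root mean square of log2 ratios over the 2608 genes was 0.246 to the 96 h library and 0.527 to the 0 h library, whereas for double-negative cells it was 0.520 and 0.330. Elane-only cells (0.372 and 0.397) and Pf4-only cells (0.395 and 0.410) lay at similar distances from both. Their sums held 868869 and 740014 UMIs, against 2.62e+06 in double-positive and 1.37e+06 in double-negative cells. Counting error is larger in smaller sums and adds to these distances, and Elane-only and Pf4-only cells were not compared at equal size. The matched cells gave 0.257 and 0.523 for double-positive and 0.522 and 0.329 for double-negative cells. All classes were farther from HOXA9 OFF at 48 h, with 1.05 for double-positive and 1.22 for double-negative cells. The arms also differ in clone, which cannot be told apart from the treatment.

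Of the 53 genes higher in double-positive cells, 45 (84.9%) were at least 2-fold higher at 96 h than at 0 h, against 4.79% of all compared genes, and 0 were 2-fold lower. The 26 lower genes followed time less, with 2 at least 2-fold lower by 96 h (7.69%, against 0.920% of all), 1 higher and a median log2 ratio of -0.51. The 238 genes at least 2-fold higher at 96 h than at 0 h, Elane and Pf4 left out, summed to 50372 CPM in double-positive, 36342 in Elane-only, 35178 in Pf4-only and 27498 in double-negative cells. The 0 h and 96 h libraries stood at 16445 and 66827. The double-positive to double-negative ratio was 1.83, 1.81 to 1.85, and it was 1.80 in matched pairs. The 42 genes at least 2-fold lower at 96 h gave 0.691, 0.675 to 0.708. By the same rule, 2.63% of 0 h and 83.2% of 96 h cells were double-positive. These matches with time are thus partly given by the rule.

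Per cell, the sum of the 238 genes lay above the 95th percentile of the 0 h cells in 410 of 416 double-positive cells (98.6%, 96.9 to 99.5). The same held for 89.0% of Elane-only, 83.2% of Pf4-only and 162 of 247 double-negative cells (65.6%, 59.3 to 71.5). At or above the median of the 96 h cells were 59 double-positive cells (14.2%) and 0 double-negative cells. The double-negative cells were not at the 0 h level either, as their summed level was 1.67 times that of the 0 h library. The genes were chosen for being low at 0 h and high at 96 h. That the 48 h classes lay between these libraries is thus partly given by the choice.

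**Figure D4:**
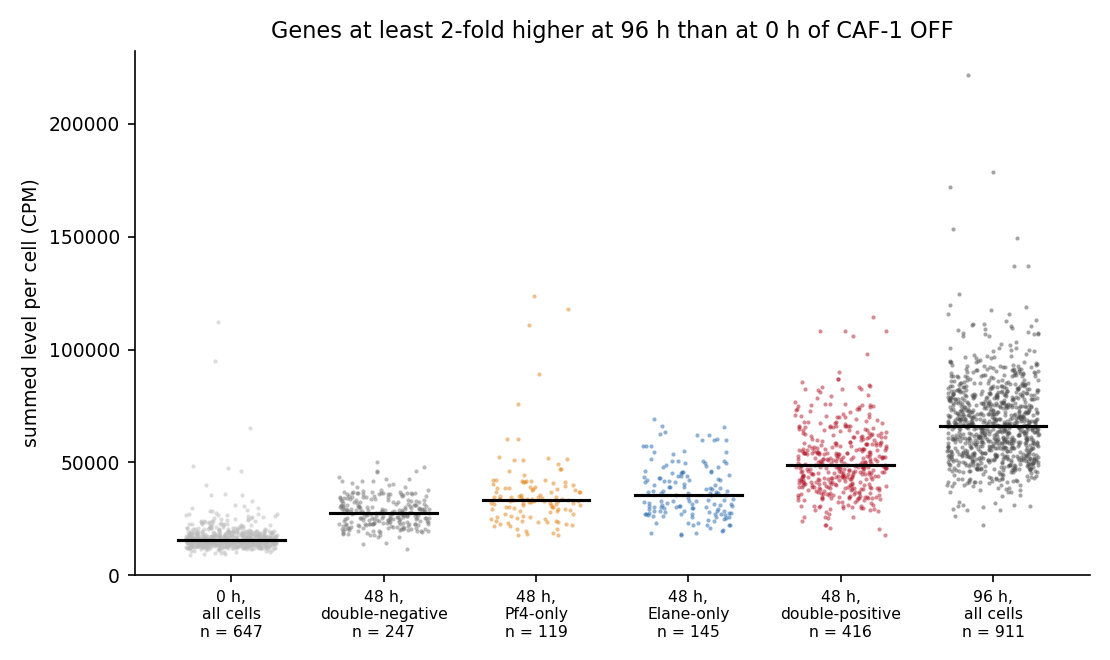
Summed level per cell, in CPM, of the 238 genes at least 2-fold higher at 96 h than at 0 h, with a point per cell and a line at the median. The 4 classes at 48 h lay between the 0 h and 96 h libraries, with double-positive cells highest and 98.6% of them above the 95th percentile of 0 h cells. The genes were chosen by the 0 h and 96 h libraries, so the place between them is partly given.

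The same rule in the other CAF-1 OFF libraries gave small comparison classes. At 0 h, 17 double-positive cells were set against 458 double-negative cells, and 45 of the 53 genes were higher and 26 of 26 lower in double-positive cells, 20 and 16 of them at least 2-fold (against 1.15% and 4.26% of all compared genes). Ms4a3 was higher there by 3.07 and Slpi by 3.67 on the log2 scale. Tgm3, at -0.049, had 4 UMIs in the whole 0 h library, too few to compare. At 96 h, 758 double-positive cells were set against 21 double-negative cells with a median of 3193 UMIs, and 42 of 53 and 21 of 26 genes went the same way, 23 and 7 at least 2-fold (against 8.24% and 2.26%). Mmp8 was higher there by 4.46 and Ccr2 was lower by a log2 ratio of -1.44. How many of all compared genes went each way at 0 h and 96 h was not counted. The counts by direction alone therefore have nothing to be set against and are a description only.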

How the data were processed

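Single-cell RNA-seq libraries (10x v2, 3′) of 6 samples were used. Per the labels and the study's methods, the authors sorted live cells, processed reads with Cell Ranger against GRCm38 (mm10), and deposited whole-number UMI counts per gene and barcode. The submitters' processing notes give Cell Ranger 3.0.1, whereas the study's methods give a later release. The deposited counts were checked to be whole and at least 0, and barcodes were assigned to libraries by their suffix. Cells with 200 to 6000 genes and at most 10% mitochondrial UMIs were kept, as in the study. Barcode sequences shared by 2 libraries numbered 16, and 1 belonged to a double-positive cell.

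UMIs were summed per class and given as CPM. Genes averaging 50 CPM or more over the double-positive and double-negative sums were compared on log2(CPM + 10), which understates the change of low genes, while folds are ratios of CPM without that addition. Elane and Pf4 were left out of every comparison and list. Counts use exact Poisson or binomial (Clopper-Pearson) 95% intervals, and the floor is 3 counts. Cells of a library are not replicates, so no p-value was computed. Thinning was 1 seeded draw without replacement. Scrublet ran in Scanpy 1.11.5 (Python 3.11.15), and marked cells stayed in unless stated. Near-identical genes, overlapping genes and antisense partners can share reads, so their single values are uncertain. The rule for genes at least 2-fold different between 96 h and 0 h required a mean of at least 20 CPM over those libraries.

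Named genes are Elane and Pf4, members of 18 fixed lists (217 of 219 genes were in the table), and up to 12 higher and 12 lower genes with the largest log2 ratio, at least 50 CPM in either class and at least 1.5-fold the same way in matched pairs. The members, lists and rules were chosen with earlier results of these data known. Alternatives were thinning, matched pairs, UMI bins, stricter calls, doublet removal, other scalings, pseudocounts and minimums. Promoter sequences are from RefSeq (GRCm38.p6), and no other coordinates are given.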

Additional observations from a re-analysis of the deposited data

Results flagged for a closer look

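In 4 lists the ratio of double-positive to double-negative cells lay on the other side of 1 in another CAF-1 OFF library, with both counting intervals clear of 1. These differences between libraries were not tested. The eosinophil list was 12.98 (10.1 to 16.9) at 48 h and 0.551 (0.470 to 0.651) at 96 h, where only 21 double-negative cells were available. At 96 h Prg2 was lower in double-positive cells, by a log2 ratio of -1.38, whereas Prg3 was higher by 2.03. Few cells held most of the list's level. In the 96 h library its median was 0 CPM per cell, its 90th percentile 1022 and its highest cell 192809. The counting intervals do not cover this spread between cells. The erythroid list was 0.904 (0.820 to 0.998) at 48 h and 1.75 (1.17 to 2.73) at 96 h. The transcription factor list was 1.15 (1.07 to 1.24) at 48 h and 0.726 (0.602 to 0.885) at 96 h. The lymphoid list was 1.16 (1.01 to 1.33) at 48 h and 0.278 (0.0898 to 0.654) at 0 h, where 17 cells were double-positive.

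Barcodes over the mitochondrial limit were outside every comparison. At 48 h of CAF-1 OFF, 6 of 126 such barcodes held both genes (4.76%, 1.77 to 10.1), above the 0.403% (1 of 248) at 0 h and below the 43.8% at 96 h. Their median depth was 1181 UMIs at 48 h.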

How the results depend on the processing

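The share of double-positive cells depended on depth and on the call. It was 44.9% as reported, 17.9% after thinning to 1300 UMIs, 30.2% at 2600 UMIs, 29.2% with at least 2 UMIs of each gene and 40.1% with no mitochondrial limit, and it stayed within its interval with a limit of 5% or without Scrublet calls. The observed number over the product of shares was 1.26 as reported and 1.53 at 1300 UMIs and moved less with narrower bins, no bins or without Scrublet calls. Higher and lower genes numbered 53 and 26 as reported, 29 and 5 with a pseudocount of 50 CPM, 114 and 50 at a mean of at least 20 CPM, 186 and 57 with no minimum level, and 136 and 98 at a size of 1.5-fold. Both counts stayed within 1.5 times under the other 8 settings (pseudocount of 1 CPM, matched pairs, UMI bins, thinning, at least 2 UMIs of each gene, no Scrublet calls and the 2 scalings). The summed genes higher at 96 h gave 1.83 as reported, 1.80 in matched pairs, 1.86 with UMI bins, 1.86 without Scrublet calls, 1.93 with median-of-ratios scaling, 2.00 with at least 2 UMIs of each gene and 3.29 for the genes at least 4-fold higher. Over 17 lists and 7 settings, 101 of 119 list sums stayed within the counting interval of the reported ratio, 18 moved beyond it and 0 changed side of 1.

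No paired analysis was possible because each group has 1 library and no result comes from a test across samples. For the same reason no replicate could be left out. Depth limits genes with few UMIs, such as Chaf1b, and the classes at 0 and 96 h that hold 17 and 21 cells. The arms and libraries cannot be separated from their single preparations, and the counting intervals do not cover variation between cultures.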
